A study of Mus musculus with 10 samples.

Results

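Mast cells in the dorsal root ganglion (DRG) were followed through 10 genes taken by symbol from the transcript quantification: the protease genes Cma1, Mcpt4, Cpa3, Tpsb2 and Tpsab1, the receptor genes Mrgprb1, Mrgprb2, Ms4a2 and Kit, and the histamine-forming enzyme gene Hdc. They are 10 of 54309 annotated genes and 33 of 140789 annotated transcripts. The tissue came from female and male C57BL6/J mice, 6 to 8 weeks old, whose left sciatic nerve was either cut across its whole width (axotomy) or exposed and left uncut (sham). Lumbar ganglia L4 and L5 of the operated side were taken 24 h later, and each library pools 2 mice. There are 2 sham and 3 axotomy libraries of each sex, and the question is how each sex responds to axotomy and whether the responses differ. The ganglia were sequenced whole, with no cell sorting. A change in the number of mast cells and a change in RNA per mast cell, up or down, therefore cannot be told apart.

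Mast cells are tissue-resident immune cells of the bone marrow lineage that sit along vessels and nerves, in connective tissue sheaths and in the ganglion. Their granules store serine proteases (chymases and tryptases), carboxypeptidase, histamine and heparin-like proteoglycan, which are released when IgE bound to the Fc epsilon receptor is crosslinked or when Mas-related receptors meet cationic peptides such as substance P. Growth and survival depend on stem cell factor acting on Kit, and GATA transcription factors and MITF are known to drive the granule genes.

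Because GATA factors are known regulators of several of these genes, the sequence around the start sites was searched for GATA words. Shown are the windows of Cma1, Mcpt4 and Cpa3, whose levels moved together across the libraries, and of Ms4a2, which did not pass the test in either sex. The windows hold 250 bases before and 50 after the start site (RefSeq, GRCm38.p6, another build than that of the quantification), written 5′ to 3′ on the strand of the gene. Capitals mark the GATA words, which are AGATAA or its variant ending in guanine (AGATAG), and the same pair with thymine in front, TGATAA where adenine comes last and TGATAG where guanine comes last, on either strand.
Cma1 (chr14:55944626-55944925, minus strand): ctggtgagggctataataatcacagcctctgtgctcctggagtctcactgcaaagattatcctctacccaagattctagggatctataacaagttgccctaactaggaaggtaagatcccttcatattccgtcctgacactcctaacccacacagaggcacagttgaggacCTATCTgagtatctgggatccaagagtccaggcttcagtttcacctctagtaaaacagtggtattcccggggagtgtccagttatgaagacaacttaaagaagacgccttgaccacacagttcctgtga
Mcpt4 (chr14:56062261-56062560, minus strand): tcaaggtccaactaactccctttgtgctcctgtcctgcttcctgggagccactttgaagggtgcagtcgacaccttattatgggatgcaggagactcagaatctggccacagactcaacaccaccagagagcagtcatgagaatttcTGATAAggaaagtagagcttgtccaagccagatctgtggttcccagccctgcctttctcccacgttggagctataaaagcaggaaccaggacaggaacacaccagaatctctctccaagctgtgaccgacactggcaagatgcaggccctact
Cpa3 (chr3:20242132-20242431, minus strand): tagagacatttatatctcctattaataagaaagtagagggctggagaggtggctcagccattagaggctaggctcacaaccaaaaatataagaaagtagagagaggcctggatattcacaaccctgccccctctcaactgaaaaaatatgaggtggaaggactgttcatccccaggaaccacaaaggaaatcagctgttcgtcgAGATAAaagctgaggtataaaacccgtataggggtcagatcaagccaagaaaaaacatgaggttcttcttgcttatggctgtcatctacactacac
Ms4a2 (chr19:11623670-11623969, minus strand): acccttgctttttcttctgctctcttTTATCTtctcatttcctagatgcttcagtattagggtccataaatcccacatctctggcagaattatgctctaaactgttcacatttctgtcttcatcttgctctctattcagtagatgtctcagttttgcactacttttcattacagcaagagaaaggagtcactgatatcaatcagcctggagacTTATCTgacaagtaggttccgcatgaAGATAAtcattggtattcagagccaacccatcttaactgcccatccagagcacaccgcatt
The word stood 79 bases before the start of Cma1, 103 before that of Mcpt4 and 46 before that of Cpa3, and Ms4a2 had 3 of them, 224, 37 and 11 bases before its start. Windows were found for 8 of the 10 genes, and 7 of these 8 held a GATA word (all but Kit), where 29.8% of 32851 windows of this length did. At least 2 matches were present for Mrgprb1 and Ms4a2, and in 7.77% of all windows. E-box words of the kind MITF binds (CACGTG or its less symmetrical variant CATGTG, either strand) occurred in 20.4% of all windows and in none of the members' windows. A match describes letters in the window and not a bound site. Tpsb2 and Tpsab1 had no window.

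Salmon assigned 55258476 to 90111671 read pairs to the transcripts of each library, so that 3 counts correspond to 0.0333 to 0.0543 CPM (the count scaled to a library total of 1000000), counting error only. The injury marker Atf3 ran from 76.7 to 125.8 CPM in the sham and from 368.8 to 697.3 CPM in the axotomy libraries, and Xist and Ddx3y fitted the labelled sex in all 10. The second female axotomy library held 125.6 CPM of summed skeletal muscle markers, where the other 9 held 2.21 to 28.01 CPM. All 10 mast cell genes had reads in all 10 libraries and passed the low-count filter, together with 20826 other genes. Tpsab1 (3 to 28 counts) and Mrgprb2 (5 to 30 counts) reached 10 counts throughout only in the male axotomy group, so that they were tested because of the group in which they are high.

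After axotomy, 8 of the 10 mast cell genes were upregulated in males and 1, Kit, was downregulated, by edgeR's quasi-likelihood F test with Benjamini-Hochberg adjustment (padj) under 0.1. In the same comparison 21.8% of all genes tested were upregulated and 20.1% downregulated. The 8 include Tpsab1 and Mrgprb2, which were tested because of the male axotomy group, so that their calls cannot be set against these shares. Both are also part of the median below. In females only Hdc was upregulated and only Kit downregulated, where 10.4% and 9.74% of all genes were. The median log2FC of the 10 genes was 1.89 in males and −0.31 in females, beside medians of 0.03 and 0.00 over all genes. The difference between these responses, tested as an interaction, did not pass for any of the 10 genes by edgeR. An unadjusted p under 0.05 was found for 7 of them, Tpsab1 and Mrgprb2 included, and for 2368 of 20836 genes tested. DESeq2 called 5 of the 10, and 2.57% of all genes. With connective tissue markers as a covariate, none of the 9 male calls remained, in a fit that called 0.873% of all genes in males, and the log2FC ran from −0.13 for Cpa3 to 1.74 for Tpsab1 among the 8 genes upregulated without it.

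**Figure D1:**
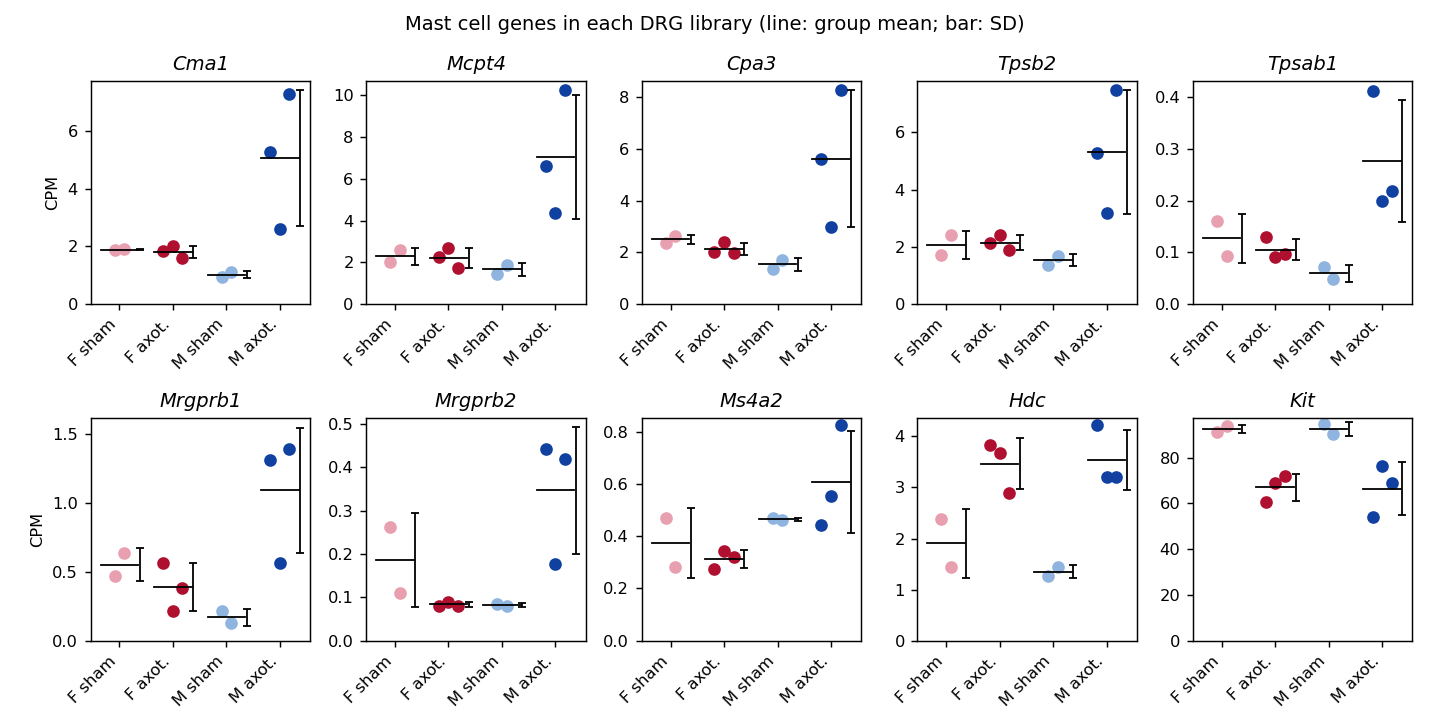
CPM of each mast cell gene in every library, with a panel per gene, each with its own axis from 0, and the points of each panel set out by group (F, female; M, male). Lines give the group mean and bars the SD (n = 2 or 3 libraries); the male axotomy points of Cma1, Mcpt4, Cpa3 and Tpsb2 lie above all others, those of Hdc lie with the female axotomy points, and Kit is lower in all 6 axotomy libraries than in the 4 sham libraries.

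Cma1 encodes a mast cell protease of the chymase family, which is stored together with carboxypeptidase in connective tissue mast cells. It was read at 1.89 and 1.90 CPM in the female sham, 1.86, 2.01 and 1.59 CPM in the female axotomy, 0.939 and 1.11 CPM in the male sham and 5.28, 2.60 and 7.30 CPM in the male axotomy libraries. The female groups overlapped, while every male axotomy library was above every other library, and the male sham libraries were the lowest. Axotomy and sham groups without overlap were found for 54.2% of all genes tested in females and 59.1% in males. How many genes set every male axotomy library above every other library, or all axotomy libraries apart from all sham libraries, was not counted. In males Cma1 was upregulated 4.60-fold (log2FC 2.20, SE 0.36, padj = 0.00199). In females the log2FC was −0.09, with a 95% interval of −0.83 to 0.66 and padj = 0.894.

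Mcpt4, the chymase gene regarded as the mouse counterpart of human chymase, lies on chromosome 14 like Cma1. Its levels were 2.00 and 2.57 CPM in female sham, 2.26, 2.68 and 1.72 CPM in female axotomy, 1.45 and 1.87 CPM in male sham and 6.61, 4.36 and 10.2 CPM in male axotomy libraries. As for Cma1, the 3 male axotomy libraries exceeded all 7 others. The gene was upregulated 3.97-fold in males (log2FC 1.99, SE 0.34, padj = 0.00220) and had log2FC −0.08 (95% interval −0.79 to 0.63, padj = 0.897) in females. Of the 31-base words in its transcripts, 12.2% also occur in transcripts of other genes, mostly Cma2, and 10.6% of those of Cma1 occur in Gm48934, so that reads in these stretches could be split between genes.

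Cpa3 (chromosome 3) encodes the carboxypeptidase of mast cell granules. It stood at 2.38 and 2.64 CPM in female sham, 2.00, 2.39 and 1.99 CPM in female axotomy, 1.36 and 1.72 CPM in male sham and 5.61, 2.97 and 8.28 CPM in male axotomy libraries. The second male axotomy library was the lowest of its group for this gene and for both chymase genes, and it still exceeded every other group. Cpa3 was upregulated 3.48-fold in males (log2FC 1.80, SE 0.35, padj = 0.00418), and in females the log2FC was −0.28 (95% interval −1.02 to 0.46, padj = 0.621).

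The tryptase genes Tpsb2 and Tpsab1 are neighbours on chromosome 17. Tpsb2 encodes the tryptase that is stored in complex with heparin, and was read at 1.73 and 2.42 CPM in female sham, 2.13, 2.41 and 1.89 CPM in female axotomy, 1.38 and 1.68 CPM in male sham and 5.28, 3.17 and 7.48 CPM in male axotomy libraries. Its male groups did not overlap and its female groups did. It was upregulated 3.27-fold in males (log2FC 1.71, SE 0.32, padj = 0.00324), with log2FC 0.02 (95% interval −0.65 to 0.70, padj = 0.970) in females. Tpsab1 is the tryptase gene that carries a splice-site change in C57BL/6 mice, which leaves this strain without the protein. It had the lowest mean TPM of the 10 genes in each group, at 0.161 and 0.0936 CPM in female sham, 0.129, 0.0905 and 0.0964 CPM in female axotomy, 0.0711 and 0.0476 CPM in male sham and 0.413, 0.200 and 0.218 CPM in male axotomy libraries. On these few counts it was upregulated in males (log2FC 1.98, SE 0.54, padj = 0.0174), which no longer passed without the second male sham library (padj = 0.154). In females its log2FC was −0.35 (padj = 0.708). The tryptase transcripts share 0.557% of the 31-base words of Tpsb2 and 0.419% of those of Tpsab1 with each other.

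Mrgprb1 and Mrgprb2, on chromosome 7, encode Mas-related G protein-coupled receptors of mouse mast cells. Mrgprb2 is the receptor through which substance P and cationic drugs degranulate them, the counterpart of human MRGPRX2. Mrgprb1 stood at 0.468 and 0.639 CPM in female sham, 0.565, 0.217 and 0.386 CPM in female axotomy, 0.213 and 0.127 CPM in male sham and 1.31, 0.567 and 1.40 CPM in male axotomy libraries. The second male axotomy library was within the range of the female libraries. Its log2FC of 2.66 in males was the largest of the 10 genes (SE 0.51, padj = 0.00353), from male sham libraries that held only 8 and 15 counts, and in females the log2FC was −0.48 (95% interval −1.48 to 0.52, padj = 0.524).

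Mrgprb2 was read at 0.263 and 0.109 CPM in female sham, 0.0807, 0.0905 and 0.0804 CPM in female axotomy, 0.0853 and 0.0793 CPM in male sham and 0.442, 0.178 and 0.420 CPM in male axotomy libraries. Both sexes separated axotomy from sham without overlap but in opposite directions, which in counts means 5 against 7 and 18 in females and 16 to 30 against 5 and 6 in males. The male rise passed the test (log2FC 2.03, SE 0.54, padj = 0.0158), but not without the first male sham library (padj = 0.103) or the second (padj = 0.106). The female log2FC was −1.14 with a 95% interval of −2.36 to 0.07 (padj = 0.197).

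Ms4a2 (chromosome 19) encodes the beta chain of the Fc epsilon receptor, which amplifies the IgE signal. It stood at 0.468 and 0.281 CPM in female sham, 0.274, 0.344 and 0.321 CPM in female axotomy, 0.469 and 0.460 CPM in male sham and 0.442, 0.555 and 0.824 CPM in male axotomy libraries. All groups of the same sex overlapped, and the first male axotomy library was below both male sham libraries. Its log2FC was 0.36 in males (95% interval −0.57 to 1.29, padj = 0.546) and −0.40 in females (95% interval −1.39 to 0.60, padj = 0.607), so that this defining mast cell gene did not pass in either sex. Its interval in males ends below the log2FC of each of the 5 protease genes. It overlaps the intervals of Mcpt4 (1.25 to 2.73), Cpa3 (1.02 to 2.58), Tpsb2 (1.01 to 2.41) and Tpsab1 (0.79 to 3.17). That of Cma1 (1.41 to 3.00) lies above it. A difference in response between Ms4a2 and the protease genes was not tested. Of its 31-base words 4.0% occur in other genes, mostly Ms4a4b.

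Kit (chromosome 5), the receptor of stem cell factor, is also expressed by a subset of sensory neurons and by melanocytes. It was read at 91.3 and 93.9 CPM in female sham, 60.6, 68.7 and 72.0 CPM in female axotomy, 94.5 and 90.3 CPM in male sham and 54.1, 76.5 and 69.0 CPM in male axotomy libraries. Every axotomy library was below every sham library in both sexes. Kit was downregulated in males (log2FC −0.35, SE 0.12, padj = 0.0490) and in females (log2FC −0.34, SE 0.12, padj = 0.0940). The male call was lost in a fit of the male libraries alone (padj = 0.128) and without either male sham library (padj = 0.22 and 0.15), and the female call without any 1 of 7 libraries (padj = 0.135 to 0.322, the 2 male sham libraries among them). Summed markers of sensory neurons were likewise lower after axotomy. In females they stood at 13382 to 13751 CPM against 16102 to 17253 CPM in sham. In males they stood at 11433 to 14043 CPM against 17516 to 18450 CPM in sham. Of these markers 6 of 11 fell in females and 9 of 11 in males, where 9.74% and 20.1% of all genes did. Of 5 melanocyte markers tested, none (0) fell in females and 1 in males. The part of neurons or melanocytes in the fall of Kit was not tested. Transcripts Kit-201 and Kit-204 held 34.1% to 55.6% and 27.9% to 49.1% of the counts of Kit, depending on the library. The retained-intron transcript Kit-208 held 0% to 5.25% in sham and 6.71% to 16.8% in female axotomy libraries, and 8.53% in the first male axotomy library. Its bearing on the log2FC of Kit was not tested.

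Hdc (chromosome 2) encodes histidine decarboxylase, the only enzyme that forms histamine, and is found in basophils and induced in other myeloid cells besides mast cells. It stood at 2.38 and 1.44 CPM in female sham, 3.83, 3.67 and 2.89 CPM in female axotomy, 1.27 and 1.44 CPM in male sham and 4.21, 3.20 and 3.21 CPM in male axotomy libraries. All 6 axotomy libraries were above all 4 sham libraries, and the axotomy groups of the sexes overlapped. Hdc was upregulated 1.86-fold in females (log2FC 0.90, SE 0.22, padj = 0.0271) and 2.67-fold in males (log2FC 1.42, SE 0.23, padj = 0.00191). The female rise was lost without the second female sham library (log2FC 0.65, padj = 0.247). Between 88.4% and 97.5% of its counts came from transcript Hdc-201.

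**Figure D2:**
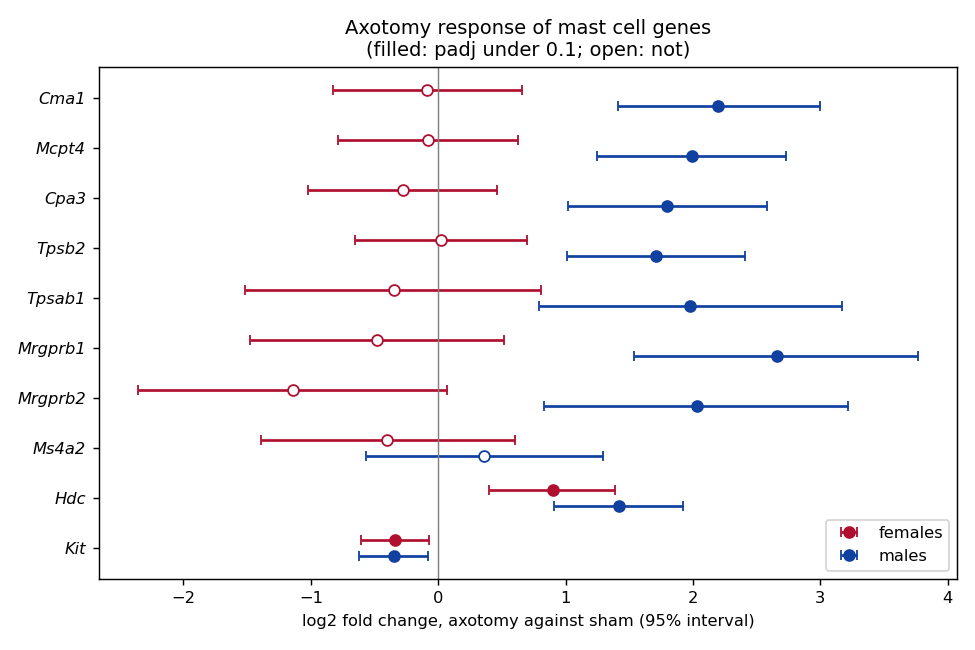
Log2 fold change of axotomy against sham for each mast cell gene, in females (red) and males (blue), with its 95% interval. Filled points have padj under 0.1: in males the 5 protease genes lie between 1.71 and 2.20, Mrgprb1 at 2.66 and Mrgprb2 at 2.03, and in females these 7 genes lie between −1.14 and 0.02, with intervals that include 0. Tpsab1 and Mrgprb2 were tested because of the male axotomy group, in which they are high.

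In TPM, the transcript abundance that Salmon corrects for transcript length, levels could be compared between the genes. Kit was the highest in each group, from 24.8 ± 5.84 TPM in male axotomy (SD, n = 3) to 36.9 ± 0.18 TPM in female sham (SD, n = 2). Mcpt4 followed at 4.62 ± 0.96 TPM in female sham and 11.7 ± 4.15 TPM in male axotomy. Tpsb2, Cpa3 and Cma1 came next in female sham, at 3.88 ± 1.13, 3.87 ± 0.38 and 3.59 ± 0.13 TPM. The libraries of Tpsb2 and Cpa3 overlapped those of Mcpt4, while those of Cma1 (3.50 and 3.68 TPM) lay below both of Mcpt4 (3.94 and 5.30 TPM). In male axotomy Tpsb2 stood at 8.25 ± 2.72, Cma1 at 7.88 ± 3.21 and Cpa3 at 7.13 ± 2.97 TPM, and all 4 protease genes overlapped. Hdc stood at 1.43 ± 0.37 TPM, Ms4a2 at 0.541 ± 0.175 TPM, Mrgprb1 at 0.400 ± 0.090 TPM, Mrgprb2 at 0.275 ± 0.159 TPM and Tpsab1 at 0.154 ± 0.044 TPM in female sham.

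The sexes were then compared directly. After axotomy, 4 of the 10 genes were higher in males, where 1.16% of all genes tested were: Mcpt4 (log2FC 1.63, SE 0.28, padj = 0.0498), Cma1 (log2FC 1.43, SE 0.30, padj = 0.0767), Tpsb2 (log2FC 1.27, SE 0.27, padj = 0.0794) and Cpa3 (log2FC 1.37, SE 0.30, padj = 0.0859). These calls rest close to the threshold. Leaving out 1 library left 0 or 1 call in 9 of 10 cases, where 0.0817% to 0.42% of all genes were higher in males. Without the second male axotomy library there were 7 calls, and 8.81% of all genes. These 7 include Tpsab1 and Mrgprb2, tested because of the male axotomy group, whose calls cannot be set against this share. A fit of the 6 axotomy libraries alone gave no call among the 10 genes, and 0.116% of all genes. Mrgprb2 had a log2FC of 1.99 (padj = 0.101) and Mrgprb1 of 1.45 (padj = 0.133). Hdc and Kit, at log2FC −0.02 and −0.06, had intervals of −0.45 to 0.40 and −0.30 to 0.18.

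Between the sham groups, edgeR called none of the 10 genes, and DESeq2 called none. An unadjusted p under 0.05 by edgeR was found for 2 of the 10, and for 670 of 20836 genes tested. In this comparison edgeR called 0.0432% of all genes and DESeq2 0.154%. The male sham libraries had the lower mean for 9 of the 10 genes on the fitted scale, with log2FC −0.86 for Cma1 (unadjusted p = 0.0456) and −1.69 for Mrgprb1 (unadjusted p = 0.0103), and Ms4a2 at 0.30 the other way. These male sham values are the base of the log2FC in males.

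The difference between the male and the female log2FC was 2.29 for Cma1 (SE 0.49, padj = 0.194), 2.07 for Mcpt4 (padj = 0.194), 2.08 for Cpa3 (padj = 0.202), 1.68 for Tpsb2 (padj = 0.240) and 2.33 for Tpsab1 (padj = 0.303). It was 3.14 for Mrgprb1 (padj = 0.194) and 3.17 for Mrgprb2 (padj = 0.231). These 7 genes had an unadjusted p under 0.05, as had 2368 of 20836 genes tested. None passed after adjustment by edgeR, which called 0.0192% of all genes in this comparison. DESeq2, which called 2.57% of all genes, called 5 of the 10 (Cma1, Mcpt4, Cpa3, Tpsb2 and Mrgprb1) and gave no adjusted p for Tpsab1 and Mrgprb2. Without the second male axotomy library edgeR called 7 of the 10, and 10.5% of all genes. Tpsab1 and Mrgprb2 are among these 7 and were tested because of the male axotomy group, so that their calls cannot be set against this share. For Hdc the difference was 0.52 (95% interval −0.17 to 1.21), for Ms4a2 0.76 (95% interval −0.60 to 2.12) and for Kit −0.01 (95% interval −0.39 to 0.38).

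The proportions of the 5 protease genes varied little between libraries for the 4 abundant ones and more for Tpsab1, which rests on 3 to 28 counts. Of their summed CPM, Mcpt4 held 23.6% to 32.7%, Cpa3 22.4% to 29.2%, Tpsb2 21.1% to 26.6%, Cma1 17.3% to 23.1% and Tpsab1 0.652% to 1.97%. The sum itself was 8.16 and 9.62 CPM in female sham, 7.29 to 9.57 CPM in female axotomy, 5.20 and 6.43 CPM in male sham, and 13.3, 23.2 and 33.5 CPM in male axotomy libraries. Across the 10 libraries, log2 CPM of Cma1, Mcpt4, Cpa3 and Tpsb2 correlated pairwise with Pearson's r of 0.965 to 0.989. With these 4 genes Mrgprb1 correlated at 0.809 to 0.885, Mrgprb2 at 0.789 to 0.881, Hdc at 0.512 to 0.636, Ms4a2 at 0.453 to 0.551 and Kit at −0.630 to −0.540. The points of these correlations share their libraries and group structure, and the values are given as a description.

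Other cell types moved with the proteases in males. All 10 fibroblast markers, all 11 macrophage markers, 9 of 10 meninges and perineurium markers and all 5 erythrocyte markers rose after axotomy in males, where none, 1, 1 and none did in females. In females 2 fibroblast markers and 1 macrophage marker fell. Of all genes tested, 21.8% rose in males and 10.4% in females. Every one of these 36 markers had reads in all 10 libraries. For the difference between the sexes edgeR called none of the 36, and 0.0192% of all genes. An unadjusted p under 0.05 was found for 25 of the 36, and for 2368 of 20836 genes tested. DESeq2 called 19 of the 36, and 2.57% of all genes. All 7 myelinating Schwann cell and 5 of 7 satellite glia markers also rose in males, and none (0) and 1 in females. Of the satellite glia markers, edgeR called 1 for the difference between the sexes. In males 3 of 7 endothelium and 9 of 11 sensory neuron markers fell. Summed fibroblast markers were 703.4 and 749.9 CPM in male sham, 1011, 1534 and 1978 CPM in male axotomy, 911.5 and 986.9 CPM in female sham and 744.8 to 844.1 CPM in female axotomy libraries. The male axotomy libraries took the same order for fibroblast markers, macrophage markers (115.1, 157.6 and 219.2 CPM) and proteases, with the second lowest and the third highest. Per 1000 CPM of fibroblast markers, a ratio chosen after the values were seen, the proteases summed to 13.2 to 17.0 CPM in male axotomy, 6.93 and 9.14 CPM in male sham, 8.27 and 10.6 CPM in female sham and 9.78 to 12.7 CPM in female axotomy libraries. Per 100 CPM of macrophage markers they summed to 11.6 to 15.3 CPM in male axotomy, 8.52 and 9.82 CPM in male sham, 8.75 and 12.1 CPM in female sham and 7.22 to 9.94 CPM in female axotomy libraries. In a fit with the mean of 20 fibroblast, meninges and perineurium markers as a covariate, none of the 9 male calls remained. An unadjusted p under 0.05 was left for 1 of the 10 genes, and for 2709 of 20836 genes tested. That fit called 182 of 20836 genes (0.873%) in males, where 4543 rose and 4189 fell without the covariate. There the log2FC in males was 0.27 for Cma1 (padj = 0.772), 0.48 for Mcpt4 (padj = 0.672), −0.13 for Cpa3 (padj = 0.906), 0.20 for Tpsb2 (padj = 0.877), 0.38 for Mrgprb2 (padj = 0.897), 0.96 for Mrgprb1 (padj = 0.646) and −0.09 for Kit (padj = 0.913). Hdc and Tpsab1 lost their calls with log2FC close to those without the covariate, at 1.38 against 1.42 (padj = 0.255) and 1.74 against 1.98 (padj = 0.506). The covariate was higher in all 3 male axotomy libraries (0.10 to 1.68) than in both male sham libraries (−1.10 and −0.88), so that in males the injury and the connective tissue content of the sample cannot be told apart.

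**Figure D3:**
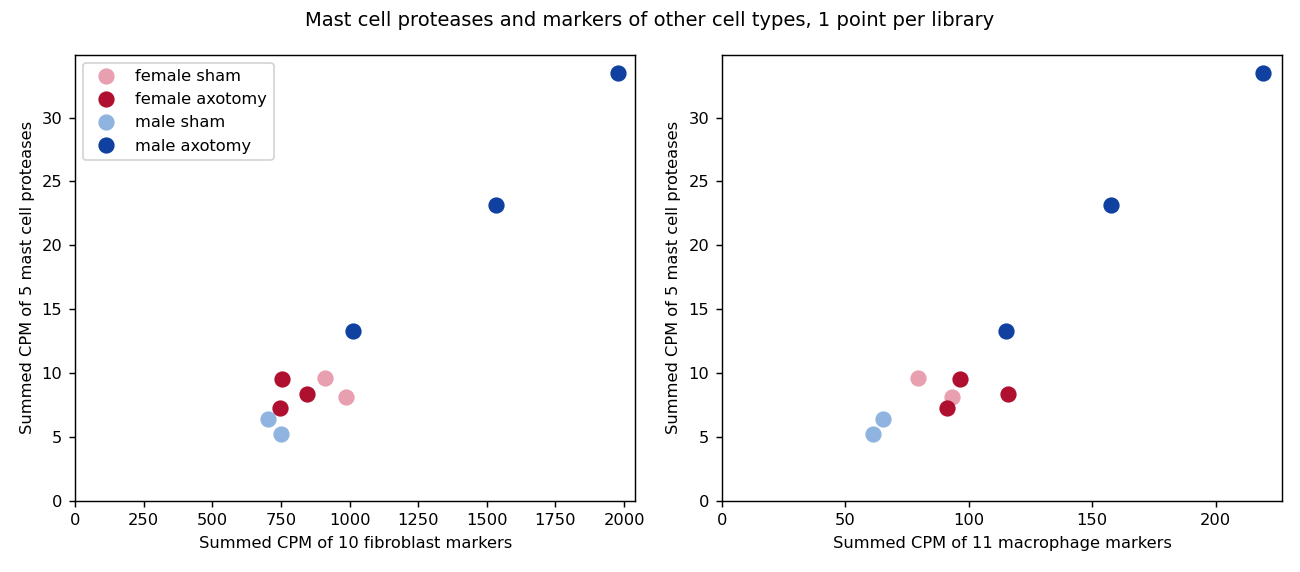
Summed CPM of the 5 mast cell proteases in each of the 10 libraries (vertical axes) against the summed CPM of 10 fibroblast markers and of 11 macrophage markers (horizontal axes), coloured by group. The male axotomy libraries, at 13.3, 23.2 and 33.5 CPM of proteases, have the highest fibroblast sums (1011, 1534 and 1978 CPM), and the other 7 libraries lie between 5.20 and 9.62 CPM of proteases.

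The genes whose pattern was most like that of the proteases were ranked by Pearson's r with the mean standardized log2 CPM of the 5 proteases over the 10 libraries, among 15289 other genes with a mean of at least 1 CPM. The highest were Gstm2 (glutathione transferase, r = 0.987), Rab3il1 (r = 0.984), the matrix protein gene Tgfbi (r = 0.981), Srpx (r = 0.975), the sulfotransferase gene Sult1a1 (r = 0.974), the Toll-like receptor kinase gene Irak4 (r = 0.973), Gvin-ps7 (r = 0.971), the Hedgehog transducer gene Smo (r = 0.971), Cmtm5 (r = 0.970) and the alcohol dehydrogenase gene Adh1 (r = 0.969). None of them is on the lists of mast cell genes used here, and 304 of the ranked genes had r above 0.9. Over the 7 libraries without male axotomy, r of these 10 genes was lower, from 0.719 for Cmtm5 to 0.950 for Gstm2. Tgfbi, for example, ran at 64.7 and 58.2 CPM in female sham, 54.0 to 70.7 CPM in female axotomy, 47.8 and 49.4 CPM in male sham and 86.3, 115.2 and 144.3 CPM in male axotomy libraries, with the second male axotomy library lowest of its group.

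The other genes of the mast cell setting are read against the same shares of all genes as above, 21.8% upregulated and 20.1% downregulated in males and 10.4% and 9.74% in females. Of 21 other mast cell genes, 16 were tested, and 9 were upregulated in males and 2 in females, with none downregulated in either sex. The median log2FC was 1.05 in males and 0.27 in females. Tpsg1 and Fcer1a, both among the 9, stood at 0.0284 to 0.146 and 0.0996 to 0.174 CPM in sham. They were tested because of the axotomy libraries, in which they were mostly higher, so that their calls cannot be set against these shares. The same holds for Prss34 and Gzma below. Fcer1g, the gamma chain that the Fc epsilon receptor shares with receptors of macrophages and NK cells, rose in both sexes (log2FC 1.68, SE 0.37, padj = 0.00757 in males and log2FC 1.02, SE 0.36, padj = 0.0937 in females), of which the female call was lost with no filter on low counts (padj = 0.297) and with the replicate block (padj = 0.124). It ran at 2.94 and 2.15 CPM in female sham, 7.43, 4.90 and 3.54 CPM in female axotomy, 1.31 and 2.62 CPM in male sham and 7.07, 4.53 and 8.50 CPM in male axotomy libraries. Hpgds, the prostaglandin D synthase of mast cells and some macrophages, also rose in both sexes (1.52 in males and 1.05 in females, padj = 0.000731 and 0.00657). The transmembrane tryptase gene Tpsg1 (log2FC 2.17, SE 0.80, padj = 0.0579) and the adenosine receptor gene Adora3 (log2FC 2.03, SE 0.82, padj = 0.0808) rose in males from levels close to that of 3 counts, with Adora3 at no reads in the second male sham library. These calls were lost for Tpsg1 with no length offset (padj = 0.104) and for Adora3 in a fit of the male libraries alone (padj = 0.141). Fcer1a, the IgE-binding alpha chain, was at 0.0996 and 0.174 CPM in male sham and 0.545, 0.144 and 0.504 CPM in male axotomy libraries (log2FC 1.42, SE 0.58, padj = 0.0820), and the second male axotomy library lay between the male sham libraries. DESeq2 (padj = 0.1003), the male libraries alone (padj = 0.144) and the replicate block (padj = 0.157) did not call it. The genes not tested were Gata1 (0.063 to 0.187 CPM), Mcpt1 (0 to 0.102 CPM), Rgs13 (0 to 0.034 CPM), Mcpt2 (reads in 1 library) and Mcpt9 (no reads), of which Mcpt1 and Mcpt2 mark mucosal mast cells.

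Basophil genes, which share Hdc and the Fc epsilon receptor with mast cells, were near the detection limit. Of 5, 3 were tested, and 1 rose in males. None passed in females, where Prss34 alone had an unadjusted p under 0.05. Prss34, a basophil and mast cell serine protease gene, had log2FC 1.24, SE 0.50, padj = 0.0792 in males. In females it had log2FC 1.11 (padj = 0.157). Over all libraries it ran at 0.0711 to 0.436 CPM, and Il4 and Il13 reached at most 0.032 CPM. The male call of Prss34 was lost with DESeq2 (padj = 0.143), with no filter (padj = 0.101) and with the replicate block (padj = 0.103). Among granzymes and neutrophil serine proteases, which lie in part beside the chymases on chromosome 14, 5 of 8 were tested. Gzma rose in males (log2FC 2.76, SE 0.75, padj = 0.0167) and Elane in females (log2FC 1.80, SE 0.57, padj = 0.0620), while Gzmm fell in females (log2FC −0.71, SE 0.23, padj = 0.0723), a call lost with DESeq2 (padj = 0.136) and with no filter (padj = 0.197). Gzma stood at 0.0142 and 0.0635 CPM in male sham libraries, the first below the level of 3 counts. In male axotomy it stood at 0.206, 0.178 and 0.420 CPM, and in female sham at 0.117 and 0.265 CPM. Elane stood at 0.219 and 0.140 CPM in female sham and 1.11, 0.525 and 0.289 CPM in female axotomy. The highest of these libraries also held the most neutrophil and monocyte markers (109.9 CPM).

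Of 14 growth factors and alarmins that act on mast cells, 9 were tested, 4 rose in males and 3 in females, and none fell. Adcyap1, which encodes the neuropeptide PACAP, rose most in both sexes (log2FC 1.85, SE 0.16, padj = 0.000198 in males and log2FC 1.68, SE 0.15, padj = 0.000368 in females), from 122 and 126 to 495, 417 and 348 CPM in males. Cxcl12, a chemokine that attracts mast cell progenitors among other cells, rose in both sexes as well (0.34 in males and 0.41 in females, padj = 0.0332 and 0.0348). Both calls rest on the correction for transcript length: without it the log2FC of Cxcl12 was −0.20 in males (padj = 0.216) and 0.29 in females (padj = 0.131), and its CPM, which carry no such correction, ran at 48.1 and 45.1 in male sham and 40.1, 43.6 and 41.9 in male axotomy libraries. Il33, the alarmin that acts through the receptor gene Il1rl1 on mast cells, was at 4.01 and 3.52 CPM in male sham and 8.92, 5.62 and 13.1 CPM in male axotomy libraries (log2FC 1.24, SE 0.29, padj = 0.00911), with 0.07 (padj = 0.895) in females, and its receptor gene Il1rl1 rose in males (log2FC 1.34, SE 0.21, padj = 0.00175). The difference between the sexes did not pass for Il33 (padj = 0.327). Kitl, which encodes stem cell factor, did not pass in males (log2FC 0.14, SE 0.07, padj = 0.165) or females (log2FC 0.10, SE 0.07, padj = 0.425).

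Genes of Fc epsilon receptor and Kit signaling moved in both directions: of 18 tested, 9 rose and 5 fell in males, and 2 rose and 1 fell in females. The adaptor gene Grap2 (log2FC 1.87, SE 0.46, padj = 0.0114) and the exchange factor gene Vav1 (log2FC 1.27, SE 0.27, padj = 0.00579) rose in males, beside Fcer1g and Fcer1a given above. Fcer1a was tested because of the axotomy libraries, as said there. Of 17 granule and exocytosis genes, 16 were tested, 8 rose and 3 fell in males, and 3 rose and 2 fell in females. Cd63, a granule membrane protein found in many cells (1.27 in males and 1.08 in females, padj = 0.000252 and 0.000777), and Unc13d, a priming factor of granule release (1.13 and 0.84, padj = 0.00146 and 0.0120), rose in both sexes. Srgn, the core protein of the granule proteoglycan, rose in males (log2FC 1.12, SE 0.19, padj = 0.00209). Syt2, a calcium sensor of neurons and mast cells, fell in both sexes (−1.28 and −0.87, padj = 0.00102 and 0.0114).

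On the receiving side, the histamine pathway had 8 of 10 genes tested, of which 2 fell in males and 1 in females, shares near those of all genes (20.1% and 9.74%), and none rose. The histamine receptor gene Hrh3 (log2FC −0.82, SE 0.33, padj = 0.0746) and the transporter gene Slc29a4 (log2FC −0.63, SE 0.13, padj = 0.00458) fell in males, and Hnmt, which inactivates histamine by methylation, fell in females (log2FC −0.61, SE 0.15, padj = 0.0236). Of 13 receptors for mast cell mediators, 12 were tested, 1 rose and 4 fell in males, and 3 fell in females. The leukotriene receptor gene Cysltr1 rose in males (log2FC 1.84, SE 0.35, padj = 0.00336). The endothelin receptor gene Ednra, the thrombin receptor gene F2r and the angiotensin receptor gene Agtr1a fell in both sexes, by 0.86, 0.78 and 0.65 on the log2 scale in males and by 0.76, 0.70 and 0.48 in females. Of the 10 Mas-related receptors listed here as neuronal, relatives of Mrgprb1 and Mrgprb2, 1 rose and 4 fell in males and 2 fell in females. Which cells of the ganglion express each of them was not tested. Mrgprd, a marker of non-peptidergic nociceptors, fell from 182 and 164 to 89.5, 120 and 109 CPM in males (log2FC −0.79, SE 0.13, padj = 0.00209) and from 172 and 156 to 86.9, 91.6 and 117 CPM in females (log2FC −0.74, SE 0.13, padj = 0.00670). Mrgprx1 fell by 0.82 in males and 0.75 in females on the log2 scale, and Mrgprf rose in males (log2FC 1.01, SE 0.16, padj = 0.00185). Mrgpra1, counted among the 4 that fell, had log2FC −0.92, SE 0.38, padj = 0.0887 in males, and DESeq2 (padj = 0.177), no filter (padj = 0.171), the male libraries alone (padj = 0.166) and the replicate block (padj = 0.107) did not call it.

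**Figure D4:**
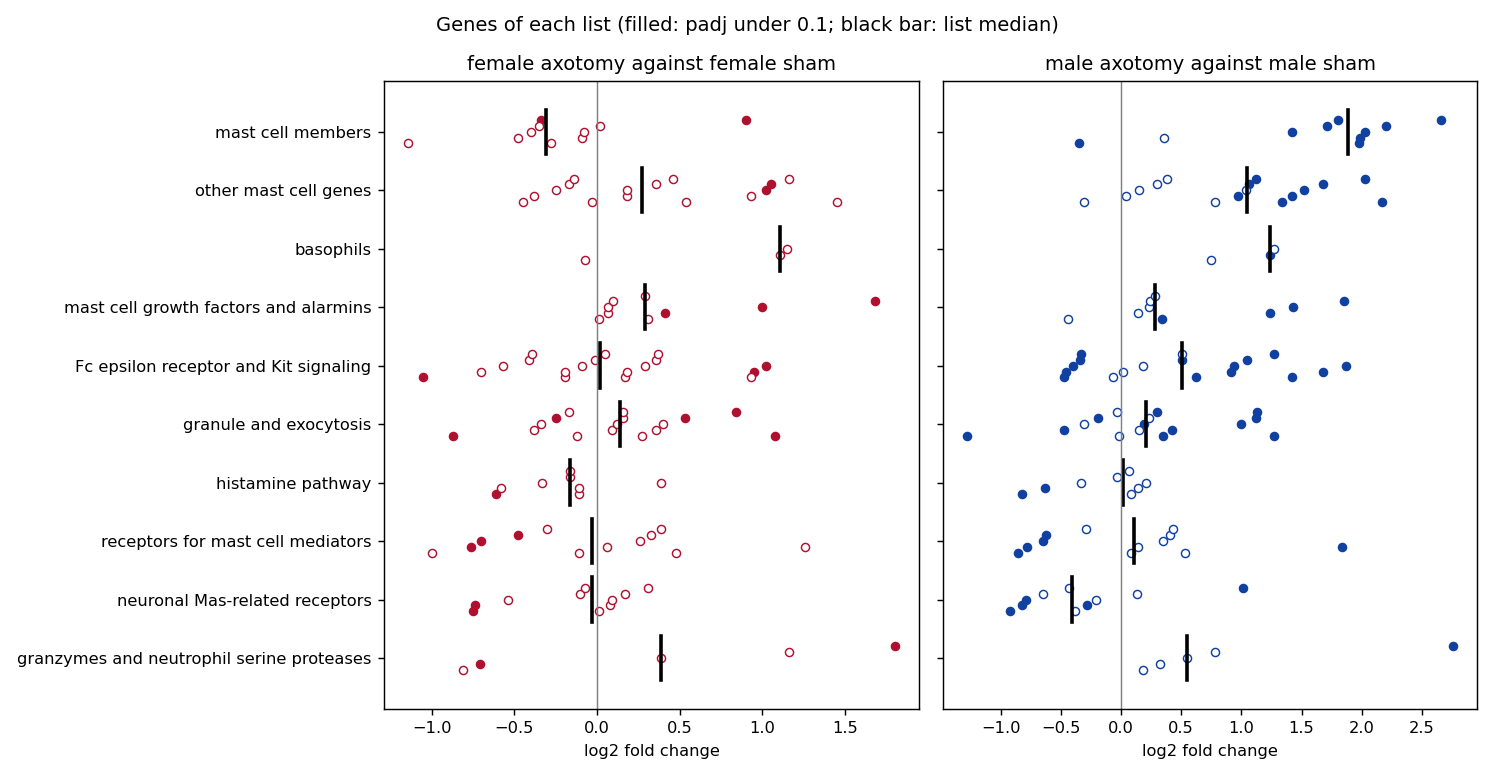
Log2 fold change of axotomy against sham for each tested gene of the mast cell members and of the 9 other lists, in females (left) and males (right). Filled points have padj under 0.1 and black bars give list medians: the members' median is −0.31 in females and 1.89 in males, that of the other mast cell genes 0.27 and 1.05, and that of the neuronal Mas-related receptors −0.03 and −0.41.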

How the data were processed

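RNA of 10 libraries of mouse DRG was sequenced by the authors, who trimmed the reads with Trimmomatic 0.39 and quantified Gencode M27 transcripts (GRCm39) with Salmon 1.3.0. The values used are the deposited estimated counts per transcript, not normalized, and the deposited TPM, which the authors' Salmon run scaled to a fixed total per library after division by effective length. Groups come from the sample labels. Estimated counts were summed per gene by symbol and gene ID and rounded, and CPM is the count scaled to a library total of 1000000.

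Genes were compared in R 4.3.3 with edgeR 4.0.16: filterByExpr with a minimum count of 10, TMM normalization, an offset of the mean effective length of each gene's transcripts, 1 fit of the 4 group means over all 10 libraries, and a robust quasi-likelihood F test, adjusted by Benjamini-Hochberg over 20836 genes. DEGs have padj under 0.1. The SE was taken from the F value, and intervals are 95% intervals from the t distribution with the degrees of freedom of the fit. The code was tested on simulated data. Replicate numbers did not pair the libraries: residuals of same-numbered libraries correlated at −0.0904 to 0.117 over 13 pairs. Chi-square over its degrees of freedom was 7.32 to 68.9 within groups, so that no library was a copy of another. p-values measure the spread between libraries, each a pool of 2 mice, and the common biological coefficient of variation was 0.129.

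The members and gene lists were chosen with earlier results of these data known. Named from each list were up to 4 genes with the largest change among those called in a comparison of axotomy with sham, and the genes not tested (1 gene so chosen is not reported here); Il1rl1 and Kitl, as partners of Il33 and Kit, and Tgfbi as an example were picked after their values were seen. Alternatives were DESeq2 1.42.0, its size factors in edgeR, no length offset, no filter, each comparison's own libraries, a replicate block, the connective tissue covariate and leaving out each library, and TMM before the filter was added after seeing the data. RUVseq and removeBatchEffect, used in the study, were not repeated here. Promoter windows are from RefSeq GRCm38.p6, and shared 31-base words from Gencode M21 transcripts.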

Additional observations from a re-analysis of the deposited data

How the results depend on the processing

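The 9 calls in males became 6 to 9 under all alternatives but the connective tissue covariate, which left none (0), in a fit that called 182 of 20836 genes in males, and turned the log2FC in males to −0.13 for Cpa3 and −0.72 for Ms4a2, while Hdc (1.38) and Tpsab1 (1.74) stayed close to their values without it. Leaving out 1 library gave 6 to 9 calls in males, 0 to 2 in females (2 otherwise), 0 to 7 for the difference between the sexes (0 otherwise) and 0 to 7 for male against female axotomy (4 otherwise), and 0 throughout for male against female sham. The counts of 7 came without the second male axotomy library, where 10.5% of all genes were called for the difference and 8.81% were higher in male axotomy. Tpsab1 and Mrgprb2, tested because of the male axotomy group, are among them. For females, 1 member was called with DESeq2 size factors in edgeR and 1 with TMM before the filter, both losing Kit (padj = 0.104 and 0.103). For the difference between the sexes, DESeq2 called 5, and 2.57% of all genes. A fit with no filter on low counts called 2, where 161 of 34900 genes were called higher and 25 lower. For male against female axotomy, neither the 6 axotomy libraries alone nor the covariate gave a call (0 each). The fit with the replicate block called 2 in females and 9 in males. Of all 20836 genes it called 2482 higher and 2493 lower in females, and 4462 and 4245 in males. For male against female axotomy it called 6, where 454 of all genes were higher in males (242 without the block). Mrgprb1 (padj = 0.0969) and Mrgprb2 (padj = 0.0756) were added there, the latter tested because of the male axotomy group. It called 0 for the difference between the sexes and for male against female sham. Signs turned for Tpsb2 in females (−0.06 with the replicate block), Kit (0.26) and Ms4a2 (−0.36) in the difference between the sexes and Kit (0.10) in male against female axotomy under the covariate, Hdc (0.02) in male against female axotomy and Kit (0.02) in male against female sham with no length offset, and Cpa3 (0.06), Mcpt4 (0.16) and Tpsb2 (0.19) in male against female sham under the covariate. On leaving out 1 library the sign turned for Mcpt4 (−0.28 to 0.14) and Tpsb2 (−0.24 to 0.34) in females, Ms4a2 in males (−0.12 to 0.63), Kit in the difference between the sexes (−0.12 to 0.13), and Kit (−0.17 to 0.08) and Hdc (−0.17 to 0.05) in male against female axotomy. Of the mast cell context genes chosen by rule (with Il1rl1 and Kitl), 28 were called in males and 16 in females. The rule took only genes called in a comparison of axotomy with sham, so that these counts follow from the choice and are no result about the lists. DESeq2, no length offset, no filter, own libraries and the replicate block ended 2 or 3 of these calls in males and 0 to 2 in females, and leaving out 1 library ended 1 to 8 in males and 0 to 10 in females (10 without the second and 8 without the first female sham library). The covariate ended none (0) in females and 27 in males, with a log2FC as large or larger in 5 of these (such as Il1rl1 at 1.75 and Tpsg1 at 2.79), smaller in 19, and of the other sign in Fcer1a (−1.10), Il33 (−0.32) and Cxcl12 (−0.03). With no length offset, the lost calls were Cxcl12 in both sexes and Tpsg1 in males (padj = 0.104). The cause was not tested. DESeq2 gave no adjusted p for 8 combinations of gene and comparison, and fits on a comparison's own libraries did not test Tpsab1 and Mrgprb2 in 2 comparisons. Counts below 10, as in Tpsab1 and Mrgprb2, limit what can be said of these genes in the sham libraries.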
